A study of Homo sapiens with 12 samples.

Results

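AsPC1-R, a derivative of the human pancreatic cancer cell line AsPC1 that is kept in 1.67 µM cisplatin, was compared with parental AsPC1. The comparison rests on 6 of the 12 arrays of the series, 3 of AsPC1 and 3 of AsPC1-R, and on 18417 genes, each read through the probe set that carries its symbol alone and, where there were several, through the one with the highest mean level over all 12 arrays. AsPC1 is an established line of pancreatic ductal adenocarcinoma. Both groups were grown in the same medium, and the derivative spent its last passage before harvest without cisplatin, so the comparison is between a cell population that had lived with the drug and its parent, not between cells with and without drug at harvest. The other 6 arrays hold BxPC3, a second pancreatic ductal line, and BxPC3-R, its derivative kept in 0.6 µM cisplatin and likewise passaged last without it. Each line has 1 derivative, and the labels do not say whether it is a clone or a mixed population, nor whether the 3 arrays of a group came from separate cultures. The spread that the p-values rest on is thus the spread of these arrays and may be technical.

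Cisplatin forms adducts and crosslinks on DNA, which nucleotide excision repair and the Fanconi anaemia pathway remove, and cells can also meet it by binding or exporting the metal through thiols, metallothioneins and carriers. Damaged DNA and stray nucleic acids can reach the cytosolic sensors that start interferon production, and interferon receptors signal through JAK kinases and STAT factors to a large set of interferon-stimulated genes. NF-kB, freed from its inhibitors by the receptors for interleukin-1 and tumour necrosis factor, drives chemokines and acute phase proteins, and NRF2, held back by KEAP1, drives glutathione synthesis and the enzymes that reduce quinones and aldehydes. Pancreatic cancers are commonly sorted into a classical type with gastrointestinal genes and a basal-like type with squamous genes.

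All values are log2 array levels, a difference of 1 is a 2-fold change, and levels of different genes are not comparable because their probes differ. RNA level per culture was measured, so a change in a few cells and a smaller change in all cells cannot be told apart. Array medians ran from 6.48 to 6.65. Arrays of the same group correlated at 0.991 to 0.997 across genes, and AsPC1 with AsPC1-R arrays at 0.977 to 0.983. The median SD of a gene over 3 arrays was 0.144 in AsPC1 and 0.0996 in AsPC1-R. As a mark of dim signal, 341 olfactory receptor genes had a 95th percentile of 6.25 and a median change of -0.11, and 12675 genes lay above that level. All 8 ductal epithelial markers lay above it, and their mean level was 10.29 to 10.39 in AsPC1 and 10.22 to 10.34 in AsPC1-R. KRT18 and CDH1, a keratin and the adhesion protein of epithelial junctions, were among them and fell by 0.51 and 0.46. Marker lists of endothelium, fibroblasts, leukocytes, acinar and endocrine pancreas, and hepatocytes, 39 genes measured in all, held 2 genes that rose and 2 that fell, and the mean level of no list was higher on all 3 AsPC1-R arrays than on all 3 AsPC1 arrays. The fibroblast list was lower, at 6.41 to 6.61 in AsPC1 and 6.29 to 6.33 in AsPC1-R, and the leukocyte list ran from 5.30 to 5.58 and from 5.29 to 5.37. One of the rises was PECAM1, an endothelial adhesion protein, whose probe sets disagreed (0.66 and -0.24) and whose mean over them changed by 0.21 and did not pass the test. LUM, which encodes the matrix protein lumican and marks fibroblasts, read 11.64, 11.42 and 11.57 in AsPC1 and fell by 1.03. One BxPC3 array, replicate 2, stood apart, with CDH17, an intestinal cadherin, at 9.0 against 4.99 and 4.47 on the other 2 BxPC3 arrays. CDH17 read 13.33, 13.20 and 13.31 in AsPC1, so results that use the BxPC3 arrays are given with and without that replicate where it matters.

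The test across all genes (limma, 12 arrays and 4 group means, Benjamini-Hochberg adjusted p under 0.05) called 2138 genes higher and 1592 lower in AsPC1-R, or 11.6% and 8.64% of the genes tested and 20.3% in either direction. Of these, 348 were at least 2-fold higher and 81 at least 2-fold lower, 1.89% and 0.44%. The median change of all genes was -0.05, and the 1st and 99th percentiles were -0.76 and 1.40. For 14672 genes, 79.7%, the 95% interval of the change lay within 1.5-fold in either direction. Dim genes, whose signal limits the size of a change, are among them. With the genes left out whose mean was under the olfactory receptor level in all 4 groups, 10282 were bounded. A bounded gene can also be a called one, and 1106 genes were neither. The arrays of both groups did not overlap for 16.1% of genes with AsPC1-R above and 17.3% with AsPC1-R below. Many single genes below were named by a rule that required non-overlap. Their non-overlap is thus a description and adds no support to their calls. Of 51 counts of 1 or 2 genes over the 73 lists, 18 went to 0 when some 1 of the 12 arrays was left out. On the 6 arrays of this pair alone 11 did. Of the 62 larger counts 0 did, but a larger count must lose more calls to reach 0. The comparison therefore does not show which counts rest more on single arrays. Larger counts moved too, such as that of interferon sensors that rose, from 5 to 2 without AsPC1 replicate 1.

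**Figure D1:**
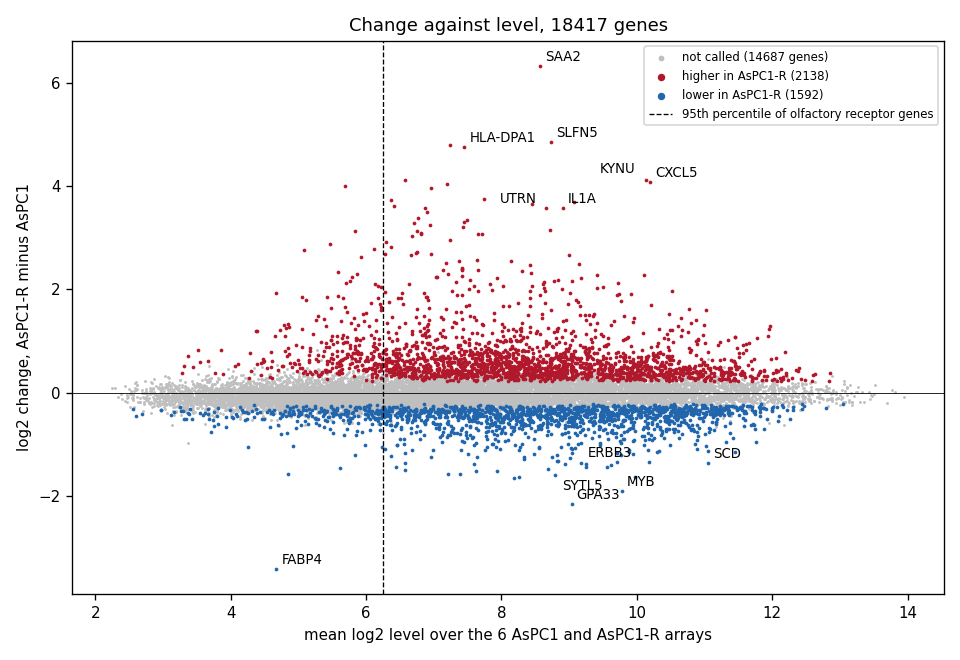
Each point is 1 of the 18417 genes, with its mean log2 level over the 6 arrays on the x axis and its log2 change, AsPC1-R minus AsPC1, on the y axis, and the called genes coloured. The rises reach further from 0 than the falls, with 348 genes at least 2-fold higher and 81 at least 2-fold lower.

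Cytosolic sensors of viral RNA were among the genes that rose in AsPC1-R. IFIH1, which encodes the sensor of long double-stranded RNA MDA5, read 8.53, 8.81 and 8.64 on the AsPC1 arrays and 10.91, 10.74 and 10.69 on the AsPC1-R arrays. The lowest AsPC1-R array stood well above the highest AsPC1 array, and the change was 2.12 (SE 0.09, adjusted p = 1.08e-09). RIGI, the sensor of RNA with a 5' triphosphate, rose by 1.78 (SE 0.13, adjusted p = 2.4e-07), from 8.86, 9.17 and 8.58 to 10.75, 10.60 and 10.60. STING1, the adaptor for cytosolic DNA, rose by 0.38 (adjusted p = 0.0136, limma), a call lost when AsPC1 replicate 1 (0.0627) or AsPC1-R replicate 3 (0.0644) was left out and after another quantile normalization (0.0674). Of 11 sensors and adaptors measured, 5 rose and none fell, a count of 2 without AsPC1 replicate 1 and of 3 without AsPC1-R replicate 2 or 3. Of 7 interferon ligands, the one that rose was IFNB1, interferon beta, at 3.19, 3.07 and 3.03 in AsPC1 and 3.24, 3.57 and 3.60 in AsPC1-R. All 6 of these readings lie below the olfactory receptor level of 6.25, and the call was lost without AsPC1-R replicate 2 (adjusted p = 0.0767) or 3 (0.0801).

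Receptors and kinases rose in part. IFNGR1, the ligand-binding chain of the interferon gamma receptor, read 10.83, 10.70 and 10.69 in AsPC1 and 11.67, 11.82 and 11.70 in AsPC1-R, without overlap (change 0.99, SE 0.11, adjusted p = 2.48e-05). IFNAR2, a chain of the type I interferon receptor, rose by 0.54 (SE 0.08, adjusted p = 0.000274). JAK1, the kinase bound to both receptors, rose by 0.31 (adjusted p = 0.0108, limma; 0.0538 without AsPC1-R replicate 3). In all 5 of 9 receptors and kinases rose and none fell, 3 of them without AsPC1 replicate 2, AsPC1-R replicate 1 or AsPC1-R replicate 3. Among 8 transcription factors of the pathway, IRF9, the DNA-binding part of the ISGF3 complex, read 7.40, 7.44 and 7.61 in AsPC1 and 8.02, 8.07 and 7.85 in AsPC1-R. Every AsPC1-R array was above every AsPC1 array, by 0.49 on average (SE 0.09, adjusted p = 0.00161). IRF1 rose by 0.66 (SE 0.13, adjusted p = 0.00284), and the other 6 did not pass the test.

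The effectors are the antiviral proteins that interferon induces, and most of them rose. Of 39 measured, 29 rose, 15 of them at least 2-fold, and none fell, with a median change of 0.81 against -0.05 for all genes. The sizes ranged widely. SLFN5, a Schlafen family protein, read 6.01, 6.56 and 6.36 in AsPC1 and 11.24, 11.09 and 11.15 in AsPC1-R, a change of 4.85 (SE 0.11, adjusted p = 3.78e-12). GBP4, a guanylate-binding protein, read 5.43, 5.16 and 5.36 in AsPC1 and 8.76, 8.45 and 8.51 in AsPC1-R. Its AsPC1 arrays were all under the olfactory receptor level and its AsPC1-R arrays all over it (change 3.26, SE 0.10, adjusted p = 7.28e-11). OAS2, which makes the 2'-5' oligoadenylates that activate RNase L, rose by 2.06 (SE 0.09, adjusted p = 2.11e-09), whereas MX1, a GTPase that blocks viral nucleocapsids, rose by 0.86 (SE 0.15, adjusted p = 0.000941) from 6.73, 6.71 and 6.40 to 7.36, 7.85 and 7.20.

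Promoters of this list often held the core of the interferon-stimulated response element. The letters GAAA and GAAA with any 2 bases between them, searched on both strands from 250 bases before to 50 after the start, were found for 20 of the 29 effectors with a RefSeq promoter, and for 16 of the 21 of these that rose, against 3.65% of all 27305 promoters (996). A match is a stretch of letters and no evidence of binding. The promoters of IFI44L and IFI27, genes with large rises, are shown, each as the 250 bases before the start in RefSeq's GRCh38.p14, with matches in capitals. IFI44L, at 4.73, 4.51 and 4.03 in AsPC1 and 7.02, 6.69 and 6.55 in AsPC1-R, lies at chr1:78620198-78620447 on the plus strand, where the same 10 letters stand 164 and 73 bases before the start inside a repeated stretch. IFI27, at 6.04, 6.41 and 6.31 in AsPC1 and 8.39, 8.57 and 8.22 in AsPC1-R, lies at chr14:94110486-94110735 on the plus strand, with a match on the minus strand 108 bases before the start and one on the plus strand 95 before it. For both genes all AsPC1-R arrays lay above all AsPC1 arrays (changes 2.33 and 2.14).
IFI44L: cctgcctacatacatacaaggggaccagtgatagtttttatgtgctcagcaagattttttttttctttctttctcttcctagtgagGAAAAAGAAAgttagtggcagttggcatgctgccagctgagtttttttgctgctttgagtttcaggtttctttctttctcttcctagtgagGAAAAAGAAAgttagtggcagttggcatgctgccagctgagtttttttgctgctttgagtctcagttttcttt
IFI27: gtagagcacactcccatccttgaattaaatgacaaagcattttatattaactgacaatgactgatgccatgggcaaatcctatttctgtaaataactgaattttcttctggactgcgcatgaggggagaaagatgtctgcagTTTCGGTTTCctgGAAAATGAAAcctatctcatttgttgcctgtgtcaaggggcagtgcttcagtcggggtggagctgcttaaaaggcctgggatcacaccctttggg

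ISG15 is a ubiquitin-like protein that is conjugated to other proteins during the interferon response. ISG15, its ligase HERC5 and the related HERC6 rose. HERC5, the main ISG15 ligase, read 7.90, 7.98 and 7.80 in AsPC1 and 9.91, 9.99 and 9.76 in AsPC1-R, and its relative HERC6 7.50, 7.83 and 7.51 in AsPC1 and 9.63, 9.58 and 9.73 in AsPC1-R. Neither gene's groups overlapped (changes 2.0, SE 0.09, adjusted p = 1.88e-09, and 2.03, SE 0.11, adjusted p = 2.11e-08). ISG15 rose by 0.62 (SE 0.08, adjusted p = 7.36e-05). UBA7, the enzyme that activates ISG15, was the member that fell (change -0.37, adjusted p = 0.0115, limma), a call lost without AsPC1 replicate 1 (0.0504) or AsPC1-R replicate 2 (0.0517). USP18, which removes ISG15 and damps the receptor, changed by 0.24 and did not pass the test (adjusted p = 0.196; 0.0403 without AsPC1 replicate 1). In all, 5 of 9 members rose and 1 fell, and 3 rose without AsPC1 replicate 3, AsPC1-R replicate 2 or AsPC1-R replicate 3.

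Antigen presentation changed in parts. MHC class I presents peptides cut by the immunoproteasome and pumped into the endoplasmic reticulum, and 5 of its 11 genes rose and none fell (median 0.26). B2M, the light chain, read 11.28, 10.96 and 11.31 in AsPC1 and 11.94, 12.11 and 11.83 in AsPC1-R. The groups did not overlap (change 0.78, SE 0.12, adjusted p = 0.000272). TAP1, a subunit of the peptide pump, rose by 0.70 (SE 0.09, adjusted p = 9.83e-05), PSMB9, an immunoproteasome subunit, by 1.01 and the trimming enzyme ERAP2 by 0.63. NLRC5, the class I transactivator, changed by -0.11 (adjusted p = 0.432, limma).

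Of 13 MHC class II genes, 6 rose and 1 fell, none without AsPC1 replicate 1 or 3, AsPC1-R replicate 1 or 3 or BxPC3-R replicate 2. HLA-DPA1, the alpha chain of HLA-DP, read 5.24, 4.98 and 5.02 in AsPC1 and 9.68, 9.88 and 9.92 in AsPC1-R, going from below to far above the olfactory receptor level. Its partner HLA-DPB1 rose by 1.66 (SE 0.18, adjusted p = 1.16e-05), and its 3 probe sets gave 1.66, 1.82 and 0.83. HLA-DMA and HLA-DMB, which load peptides, rose by 1.07 and 0.63, and HLA-DQA1 by 0.67. CIITA, the master regulator of class II, read 6.15, 6.50 and 6.28 in AsPC1 and 6.41, 6.43 and 6.65 in AsPC1-R. Its arrays overlapped, and its change of 0.18 did not pass the test (adjusted p = 0.243, limma).

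**Figure D2:**
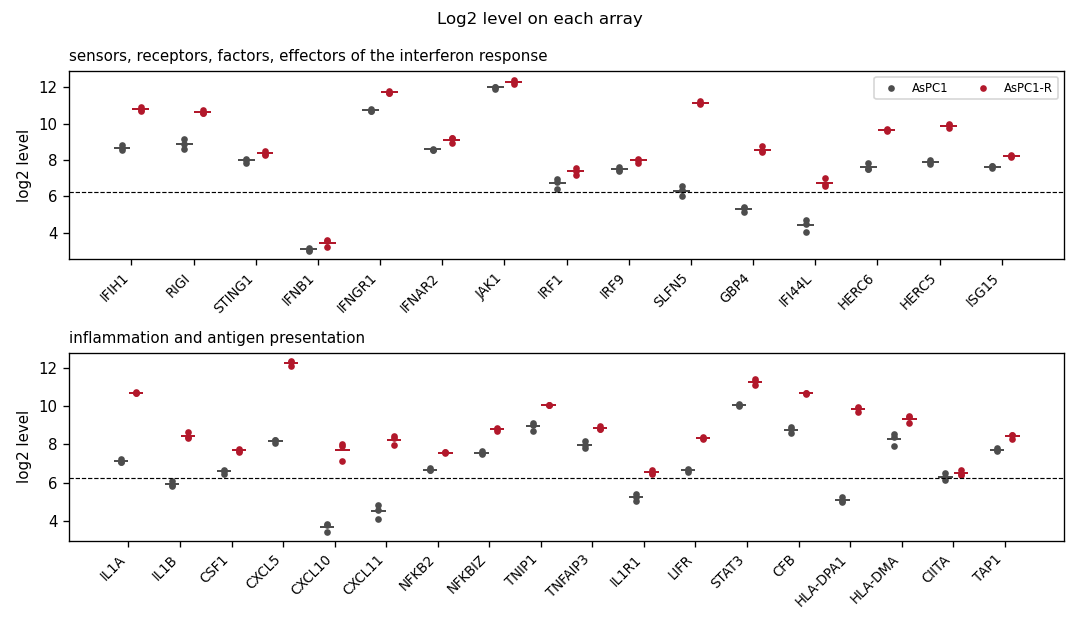
Log2 level of 15 interferon genes (upper panel) and 18 inflammation and antigen presentation genes (lower panel) on each array, AsPC1 in grey and AsPC1-R in red, with bars at the group means and a dashed line at 6.25, the 95th percentile of olfactory receptor genes. SLFN5 and HLA-DPA1 are the widest gaps in their panels, and CIITA and IFNB1 sit near or under the line in both groups.

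Members rose in each class of inflammatory genes, from cytokines to secreted products. IL1A, the interleukin-1 that epithelial cells release on damage, read 7.09, 7.07 and 7.21 in AsPC1 and 10.74, 10.65 and 10.68 in AsPC1-R. The 3 AsPC1-R arrays were tightly placed and far above the parent (change 3.57, SE 0.09, adjusted p = 5.31e-12). IL1B, the form that inflammasomes cut, rose by 2.51 (SE 0.11, adjusted p = 1.56e-09). CSF1, the growth factor of macrophages, rose by 1.09 (SE 0.15, adjusted p = 0.000165), and the cytokine IL32 by 1.04. IL18 moved the other way, from 11.60, 11.19 and 11.26 to 10.42, 10.57 and 10.33, a fall of 0.91 with no overlap (SE 0.13, adjusted p = 0.000172). IL6 read 5.08, 5.34 and 5.12 in AsPC1 and 5.34, 5.27 and 5.14 in AsPC1-R, overlapping and under the olfactory receptor level (change 0.07, adjusted p = 0.663). Of 18 cytokines, 4 rose and 1 fell (22.2% and 5.56%, beside 11.6% and 8.64% of all genes).

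Of 18 receptors and transducers 9 rose and 3 fell, 1 without AsPC1 replicate 1 or AsPC1-R replicate 2 (median 0.33). IL1R1, the signalling receptor of interleukin-1, read 5.40, 5.25 and 5.03 in AsPC1 and 6.46, 6.50 and 6.65 in AsPC1-R. Its groups were well separated (change 1.31, SE 0.11, adjusted p = 1.49e-06), and its co-receptor IL1RAP rose by 0.77 and IL18R1 by 1.02. LIFR, the receptor for leukaemia inhibitory factor, rose by 1.69 (SE 0.07, adjusted p = 1.56e-09), its shared chain IL6ST by 0.80, and STAT3, the factor they activate, by 1.21 (SE 0.09, adjusted p = 3.11e-07). Receptors that fell were TLR4, the sensor of endotoxin, by 0.62 (SE 0.14, adjusted p = 0.00494), and IL6R, by 0.44 (adjusted p = 0.0179; 0.0552 without AsPC1 replicate 1 and 0.0766 without AsPC1-R replicate 2).

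Among NF-kB subunits, NFKB2, the p100 precursor of the non-canonical branch, read 6.64, 6.75 and 6.64 in AsPC1 and 7.57, 7.59 and 7.53 in AsPC1-R. All AsPC1-R arrays were higher (change 0.88, SE 0.09, adjusted p = 6.98e-06). NFKB1 (change 0.09) and RELB (0.20) did not pass the test, and RELA rose by 0.29 (adjusted p = 0.0341, limma), a call lost without AsPC1 replicate 1 or 3, any AsPC1-R array or BxPC3-R replicate 2 (0.0506 to 0.0999). Of 10 inhibitors and feedback genes, which NF-kB itself induces, 6 rose and none fell (median 0.52). NFKBIZ, a nuclear partner of NF-kB, rose by 1.23 (SE 0.08, adjusted p = 5.85e-08), TNIP1 by 1.10 (SE 0.10, adjusted p = 2.08e-06), the ubiquitin editor TNFAIP3 by 0.89, the deubiquitinase CYLD by 0.77 and the inhibitor NFKBIA by 0.71.

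Secreted products showed the largest sizes. Of 19 chemokines, 9 rose, 8 of them at least 2-fold, and none fell. CCL28, which draws lymphocytes to mucosa, read 5.26, 5.46 and 5.29 in AsPC1 and 8.03, 8.10 and 7.88 in AsPC1-R, and CCL5, an attractant of T cells and monocytes, 7.17, 7.14 and 7.25 in AsPC1 and 9.64, 9.73 and 9.60 in AsPC1-R. No AsPC1-R array came near the parental range of either gene (changes 2.67, SE 0.13, adjusted p = 4.21e-09, and 2.47, SE 0.09, adjusted p = 1.92e-10). CXCL8, the neutrophil attractant, rose by 2.06 (SE 0.12, adjusted p = 3.44e-08). CXCL10 and CXCL11 are interferon-induced ligands of CXCR3. CXCL10 read 3.83, 3.42 and 3.81 in AsPC1 and 8.01, 7.90 and 7.13 in AsPC1-R. CXCL11 read 4.11, 4.56 and 4.85 in AsPC1 and 8.31, 8.41 and 7.96 in AsPC1-R. AsPC1-R replicate 3 was the lowest derivative array for both, still far above the parent. All 7 of 18 acute phase and antimicrobial genes that rose did so at least 2-fold, and none fell.

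SAA2, an acute phase serum amyloid, had the largest change of all genes: 5.22, 5.94 and 5.06 in AsPC1 and 11.57, 11.86 and 11.76 in AsPC1-R (SE 0.17, adjusted p = 1.5e-11). Its 2 probe sets rose by unequal amounts, 6.33 and 2.39, and its sequence is close to that of SAA1, so the share of each is uncertain. SLPI and PI3, inhibitors of neutrophil elastase, rose by 2.05 (SE 0.17, adjusted p = 9.98e-07) and 3.64 (SE 0.12, adjusted p = 7.28e-11), the antimicrobial peptide DEFB1 by 1.92 and the protease inhibitor SERPINA1 by 1.35. Complement genes rose in 7 of 13 cases and none fell. CFB, the factor B protease of the alternative pathway, read 8.60, 8.79 and 8.90 in AsPC1 and 10.66, 10.63 and 10.69 in AsPC1-R, without overlap, and its 3 probe sets gave 1.90, 1.87 and 1.6. The inhibitor CFI rose by 0.96, and CLU, clusterin, by 1.15 (SE 0.08, adjusted p = 3.28e-07).

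Tryptophan breakdown to kynurenine is led by IDO1, an enzyme that interferon gamma induces. IDO1 read 4.51, 4.68 and 4.47 in AsPC1 and 5.99, 6.27 and 5.85 in AsPC1-R. The groups were apart (change 1.48, SE 0.12, adjusted p = 6.92e-07), although 2 of the 3 AsPC1-R arrays stayed under the olfactory receptor level. Further down the route KYNU, kynureninase, read 7.87, 8.13 and 8.23 in AsPC1 and 12.17, 12.23 and 12.19 in AsPC1-R, and KMO, the 3-monooxygenase, rose by 0.92 (SE 0.12, adjusted p = 7.99e-05) and AADAT, an aminotransferase, by 0.75. WARS1, the tryptophan tRNA ligase, rose by 0.78 (SE 0.07, adjusted p = 3.48e-06), whereas AHR, the receptor that kynurenines can activate, fell by 0.43 (SE 0.10, adjusted p = 0.00702). Of 14 genes measured, 6 rose and 1 fell.

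The RNA of NRF2 did not pass the test, while several of its targets rose. NFE2L2, the gene of NRF2, read 11.84, 11.70 and 11.66 in AsPC1 and 11.78, 11.80 and 11.73 in AsPC1-R, and KEAP1 8.24, 8.51 and 8.30 in AsPC1 and 8.39, 8.47 and 8.50 in AsPC1-R. Both pairs of groups overlapped (changes 0.04 and 0.11, adjusted p = 0.788 and 0.411, limma). MAFG, the small partner with which NRF2 binds DNA, rose by 1.10 (SE 0.10, adjusted p = 2.17e-06), and its 3 probe sets gave 1.10, 0.64 and 0.26. NFE2L1, a relative, rose by 0.79, and SQSTM1, which can sequester KEAP1, by 0.39. In all, 4 of 8 regulators rose and none fell.

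Of 23 glutathione genes 5 rose and 2 fell (21.7% and 8.7%, beside 11.6% and 8.64% of all genes). SLC7A11, the cystine carrier, read 10.31, 10.53 and 10.43 in AsPC1 and 11.61, 11.43 and 11.59 in AsPC1-R. All AsPC1-R arrays were higher (change 1.12, SE 0.09, adjusted p = 8.72e-07). GPX2, a glutathione peroxidase of the gut, rose by 1.08 (SE 0.07, adjusted p = 8.61e-08). In the thioredoxin system 2 of 11 rose (18.2%, beside 11.6% of all genes), SRXN1, sulfiredoxin, by 0.86 and TXNRD1, thioredoxin reductase, by 0.70. Of the 7 enzymes that supply NADPH, 4 rose and 1 fell. ME1, malic enzyme, rose by 1.68 (SE 0.09, adjusted p = 1.19e-08) and PGD by 0.62, whereas TKT and TALDO1 changed by 0.37 and 0.49 and lost their calls without AsPC1-R replicate 3 (adjusted p 0.0554 and 0.0542), which left 2 rises. TALDO1 also lost its call without AsPC1-R replicate 2 (0.0779). IDH1 fell by 0.33 (SE 0.07, adjusted p = 0.00545).

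Enzymes that reduce quinones and carbonyls rose in 7 of 13 cases and none fell (median 0.33). AKR1B10, an aldo-keto reductase, read 5.06, 5.17 and 5.30 in AsPC1 and 8.29, 8.65 and 8.01 in AsPC1-R, the widest gap of the list (SE 0.17, adjusted p = 1.86e-08). AKR1C1 and AKR1C2 rose by 1.18 and 1.53. They are near-identical copies, so the split between them is uncertain. PTGR1 rose by 1.07 and CBR1 by 0.51. NQO1, the quinone reductase often used to read NRF2, rose by 0.33 only (adjusted p = 0.0134, limma; 0.0516 without AsPC1 replicate 2). Of 16 aldehyde dehydrogenases 4 rose, ALDH3A1 by 1.35 and ALDH1A1 by 1.23 among them, and 2 fell, including ALDH18A1 of proline synthesis, by 0.80 (SE 0.11, adjusted p = 8.67e-05). Heme and iron genes gave 3 rises and 1 fall in 14, and 1 rise without AsPC1-R replicate 2. CYBRD1, the duodenal ferric reductase, rose by 0.40.

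The antioxidant response element core TGACNNNGC, both strands, stood in 13 of the 44 promoters of these redox lists, in 7 of the 16 whose genes rose, and in 13.6% of all promoters (3702). Promoters of ME1 and GCLM, members of different branches, are shown with matches in capitals. ME1 (AsPC1 8.41, 8.35 and 8.19, AsPC1-R 10.04, 10.11 and 9.85) lies at chr6:83431052-83431301 on the minus strand, with a match 137 bases before the start, and GCLM, the modifier subunit of glutamate-cysteine ligase (7.0, 7.06 and 6.92 in AsPC1 and 8.14, 8.31 and 7.99 in AsPC1-R), at chr1:93909431-93909680 on the minus strand, with a match in the other orientation 34 bases before it. Both genes' AsPC1-R arrays lay above all AsPC1 arrays.
ME1: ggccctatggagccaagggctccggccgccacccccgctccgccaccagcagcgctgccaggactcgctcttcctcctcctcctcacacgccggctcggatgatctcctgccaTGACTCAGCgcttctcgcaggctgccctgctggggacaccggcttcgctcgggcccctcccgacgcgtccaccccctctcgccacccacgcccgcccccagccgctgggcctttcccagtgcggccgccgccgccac
GCLM: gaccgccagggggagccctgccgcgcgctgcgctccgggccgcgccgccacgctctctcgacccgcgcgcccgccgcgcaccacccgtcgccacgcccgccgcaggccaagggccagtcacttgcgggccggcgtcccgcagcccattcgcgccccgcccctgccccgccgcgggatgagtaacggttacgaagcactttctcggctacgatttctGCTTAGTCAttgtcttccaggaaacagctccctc

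Members of several families of carriers that platinum drugs are known to use rose. SLC22A4, an organic cation carrier, read 7.61, 7.75 and 7.62 in AsPC1 and 8.95, 8.83 and 8.96 in AsPC1-R. There was no overlap (change 1.26, SE 0.11, adjusted p = 1.49e-06), and of 5 cation carriers the other that rose was SLC22A5, the carnitine carrier (0.64). Of 6 copper carriers 4 rose and none fell, among them both the importer SLC31A1 (0.39, SE 0.08, adjusted p = 0.00198) and the exporter ATP7A (0.42, SE 0.10, adjusted p = 0.00645), with SLC31A2 at 0.64. ATP7B, the other copper exporter, changed by 0.28 and did not pass the test. Of 8 ABC exporters 4 rose and 1 fell (none without AsPC1 replicate 1 or AsPC1-R replicate 1 or 2), and ABCC4 had the largest change (1.30, SE 0.10, adjusted p = 5.94e-07). Of 5 subunits of the volume-regulated anion channel LRRC8D rose by 0.31 (adjusted p = 0.0218, limma), a call lost without AsPC1 replicate 1 (0.0657) or 3 (0.0563), without AsPC1-R replicate 1 (0.0932) or 3 (0.0778) and on the 6 arrays alone (0.0782). LRRC8A, the obligate one, changed by 0.16 (adjusted p = 0.329, limma).

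Of 11 metallothioneins, small metal-binding proteins, 4 fell and none rose (median -0.30). MT1E read 8.41, 8.18 and 8.47 in AsPC1 and 7.52, 7.40 and 7.45 in AsPC1-R. Every AsPC1-R array lay under every AsPC1 array (change -0.90, SE 0.11, adjusted p = 3.27e-05). MT1F fell by 0.59 (SE 0.10, adjusted p = 0.00108). The 3 probe sets of MT2A gave -0.57, -1.54 and -0.40. Among 21 carriers and enzymes of nucleoside drugs, which are also used in pancreatic cancer, 2 rose and 4 fell (9.52% and 19%, beside 11.6% and 8.64% of all genes). SAMHD1, which destroys deoxynucleotides, read 9.63, 9.67 and 9.81 in AsPC1 and 11.02, 10.95 and 10.86 in AsPC1-R, a clear separation (change 1.24, SE 0.08, adjusted p = 1.29e-07). SLC29A2, an equilibrative nucleoside carrier, fell by 0.67 (SE 0.08, adjusted p = 3.08e-05), and DCK, the kinase that activates deoxycytidine analogues, read 9.58, 9.48 and 9.49 in AsPC1 and 9.25, 9.07 and 9.08 in AsPC1-R, a fall of 0.38 (SE 0.08, adjusted p = 0.00355).

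DNA repair genes passed the test about as often as genes in general: of 45 in 3 lists 11.1% rose and 6.67% fell, beside 11.6% and 8.64% of all genes. Of 15 nucleotide excision repair genes 2 rose and none fell, of 19 crosslink repair and recombination genes 2 rose and 1 fell, and of 11 translesion genes 1 rose and 2 fell. The excision repair rises were GTF2H5, of the helicase complex TFIIH (0.41), and ERCC4, the nuclease XPF (0.27). No excision repair rise was left without AsPC1 replicate 1 or on the 6 arrays alone, 1 was left without AsPC1 replicate 2, AsPC1-R replicate 1 or 2, BxPC3 replicate 3 or any 1 BxPC3-R array, and 4 genes rose without BxPC3 replicate 1. No translesion rise was left without AsPC1 replicate 1 or AsPC1-R replicate 1, no fall without AsPC1-R replicate 2, and neither on the 6 arrays alone. FANCI, part of the complex that marks crosslinks, read 10.12, 10.25 and 10.36 in AsPC1 and 10.68, 10.58 and 10.70 in AsPC1-R. All AsPC1-R arrays were higher, by 0.41 on average (SE 0.08, adjusted p = 0.00217). FANCM, which lands on stalled forks, fell by 0.41 (SE 0.09, adjusted p = 0.00677). MRE11, a nuclease of double-strand breaks, fell by 0.50 (SE 0.08, adjusted p = 0.0004). It was counted with the checkpoint kinases and mediators and not in these 3 lists. Checkpoint kinases and mediators gave 1 rise and 3 falls in 14 (7.14% and 21.4%). Only 1 fall was left without any 1 of AsPC1 replicate 2, AsPC1-R replicates 1, 2 and 3, BxPC3 replicate 3 and BxPC3-R replicate 2. No rise was left without AsPC1 replicate 1 or AsPC1-R replicate 1 or 3. Of 21 p53 targets 7 rose and 2 fell (33.3% and 9.52%), with no fall left without AsPC1 replicate 2 or AsPC1-R replicate 3. TP53INP1 rose by 0.67 (SE 0.11, adjusted p = 0.000438) and GADD45A by 0.49.

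Genes of mitosis fell in each of their classes. Of 19 kinetochore genes 6 fell, of 12 spindle checkpoint and chromosomal passenger genes 8 (5 without AsPC1 replicate 1), of 23 spindle and cytokinesis genes 15, and of 9 condensin and topoisomerase genes 6, and in these 63 genes none rose. Their medians were -0.30, -0.39, -0.59 and -0.37. KNL1, the scaffold of the kinetochore, read 10.70, 10.80 and 10.81 in AsPC1 and 10.03, 9.93 and 9.92 in AsPC1-R. The AsPC1-R arrays were all lower (change -0.81, SE 0.08, adjusted p = 3.3e-06). NDC80, which holds the microtubule, fell by 0.53 (SE 0.12, adjusted p = 0.00553). SGO1, shugoshin, which protects cohesion, fell by 0.82 (SE 0.09, adjusted p = 1.27e-05), the checkpoint kinase TTK by 0.70 (SE 0.09, adjusted p = 0.000102) and BUB1 by 0.49 (SE 0.09, adjusted p = 0.00122).

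Of the motors, KIF14 fell by 0.93 (SE 0.08, adjusted p = 1.29e-06) and KIF20A by 0.77 (SE 0.08, adjusted p = 1.55e-05), and the condensin subunits SMC2 and SMC4 by 0.58 and 0.42. PLK1, the mitotic kinase, read 10.81, 10.77 and 10.76 in AsPC1 and 10.02, 10.07 and 10.17 in AsPC1-R, and CDK1 9.89, 9.64 and 9.82 in AsPC1 and 9.03, 9.33 and 9.0 in AsPC1-R. Neither overlapped (changes -0.69 and -0.66). Of 22 mitotic drivers 10 fell and 1 rose. The riser was MYBL1, at 8.01, 8.31 and 8.32 in AsPC1 and 9.26, 8.99 and 9.10 in AsPC1-R (SE 0.10, adjusted p = 2.54e-05). LIN9, of the MuvB complex, fell by 0.73 (SE 0.09, adjusted p = 7.16e-05), FOXM1 changed by -0.34 (adjusted p = 0.0363, limma) and lost its call without AsPC1 replicate 1 or 3, AsPC1-R replicate 1 or 2, BxPC3 replicate 3 or BxPC3-R replicate 2 (0.0502 to 0.161) and with arrays centred on their medians (0.0849), and MYBL2 changed by -0.27 (0.0529; 0.0266 without BxPC3 replicate 1 and 0.0109 after another quantile normalization).

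Of 34 replication genes 2 rose and 5 fell (5.88% and 14.7%, beside 11.6% and 8.64% of all genes), with a median of -0.01. Only 3 falls were left without AsPC1-R replicate 3 or BxPC3-R replicate 2. Only 1 rise was left without AsPC1 replicate 1, any 1 AsPC1-R array, BxPC3 replicate 2 or 3, or BxPC3-R replicate 1 or 2. Without AsPC1 replicate 3, 4 rose. CDC6, which loads the replicative helicase, read 10.73, 10.69 and 10.77 in AsPC1 and 11.23, 11.27 and 11.32 in AsPC1-R, so that its AsPC1-R arrays were all higher (change 0.54, SE 0.08, adjusted p = 0.000207). PRIM1, the primase, and RFC5, of the clamp loader, fell by 0.50 and 0.55. CCND1, cyclin D1, rose by 0.60 (SE 0.10, adjusted p = 0.000431), and CDKN1B, the inhibitor p27, fell by 0.57 (SE 0.10, adjusted p = 0.000927). Of 26 genes of G1 control 3 rose (11.5%) and 2 fell (7.69%), shares close to those of all genes (11.6% and 8.64%).

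The cell cycle homology region TTTGAA, both strands, stood in 39 of 63 promoters of mitotic genes, in 21 of the 31 whose genes fell, and in 15.4% of all promoters (4212). KIF15, at chr3:44761544-44761793 on the plus strand, and KIF11, at chr10:92592880-92593129 on the plus strand, are motors that push spindle poles apart. Each holds the match in the minus orientation close to the start, 35 and 28 bases before it. KIF15 read 10.05, 9.79 and 9.99 in AsPC1 and 8.91, 9.01 and 8.99 in AsPC1-R, and KIF11 11.40, 11.68 and 11.41 in AsPC1 and 10.84, 10.76 and 10.73 in AsPC1-R. Both fell, by 0.97 and 0.72, without overlap (SE 0.08, adjusted p = 1.53e-06, and SE 0.09, adjusted p = 5.48e-05).
KIF15: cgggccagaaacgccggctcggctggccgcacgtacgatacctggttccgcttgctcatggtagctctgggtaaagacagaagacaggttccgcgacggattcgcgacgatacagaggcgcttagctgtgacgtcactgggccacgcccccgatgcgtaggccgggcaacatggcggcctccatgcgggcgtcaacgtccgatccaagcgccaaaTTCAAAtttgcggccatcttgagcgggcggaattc
KIF11: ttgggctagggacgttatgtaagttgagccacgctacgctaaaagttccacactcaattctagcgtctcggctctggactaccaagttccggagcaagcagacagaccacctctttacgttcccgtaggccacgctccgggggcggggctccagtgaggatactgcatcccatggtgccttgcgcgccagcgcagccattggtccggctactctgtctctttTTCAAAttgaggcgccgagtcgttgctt

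Regulators and enzymes of sterol and fatty acid synthesis fell in part. SREBF2, the factor that drives cholesterol genes, read 8.21, 8.30 and 8.17 in AsPC1 and 7.47, 7.40 and 7.59 in AsPC1-R. All AsPC1-R arrays were lower (change -0.74, SE 0.09, adjusted p = 5.08e-05). SREBF1, its relative for fatty acids, fell by 0.63 (SE 0.09, adjusted p = 0.000144), and INSIG1, a target that holds both back, by 0.78, while INSIG2 rose by 0.56 (SE 0.11, adjusted p = 0.00296), so that of 8 sterol regulators 1 rose and 3 fell. Of 16 cholesterol synthesis genes 6 fell and none rose (median -0.23). DHCR7, the last step, read 8.99, 8.70 and 9.01 in AsPC1 and 8.15, 8.29 and 8.33 in AsPC1-R, apart by 0.65 (SE 0.10, adjusted p = 0.000257), and IDI1 fell by 0.44. The letters ATCAC and CCAC with any base between them, a form of the sterol element, stood on either strand in none of the 14 promoters of this list and in 0.154% of all (42).

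Of 16 genes of cholesterol uptake and transfer 7 rose and 2 fell (median 0.16). The largest rise was that of OSBPL6, an oxysterol-binding protein, which read 5.08, 5.34 and 5.09 in AsPC1 and 9.27, 9.06 and 9.30 in AsPC1-R, from below the olfactory receptor level to well above it (change 4.04, SE 0.12, adjusted p = 2.15e-11). ABCA1, which exports cholesterol to lipoproteins, read 6.07, 6.15 and 6.13 in AsPC1 and 7.77, 7.56 and 7.92 in AsPC1-R, from below the olfactory receptor level to above it. The change was 1.63 (SE 0.09, adjusted p = 1.85e-08). SOAT1, which stores cholesterol as esters, rose by 0.93 (SE 0.09, adjusted p = 8.34e-06), LIPA, which frees it in lysosomes, by 0.81 and NPC1, which lets it leave them, by 0.38 (adjusted p 0.0535 without AsPC1-R replicate 3). MYLIP, a ligase that destroys the LDL receptor, fell by 0.64, and STARD4, a carrier, by 1.28 (SE 0.11, adjusted p = 1.94e-06).

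Of 18 genes of fatty acid synthesis and desaturation 9 fell and 4 rose, 2 of them without AsPC1-R replicate 3 (median -0.27). SCD, the desaturase that makes oleate, read 11.75, 11.71 and 11.72 in AsPC1 and 10.44, 10.36 and 10.31 in AsPC1-R. The 2 groups were compact and separate (change -1.36, SE 0.09, adjusted p = 1.64e-07). FADS2 fell by 1.2 (SE 0.09, adjusted p = 2.85e-07), and the elongase ELOVL7 rose by 1.12 (SE 0.15, adjusted p = 0.000106). Fatty acid uptake and storage gave 1 rise and 6 falls in 16. FABP4, a fatty acid carrier, read 6.34, 5.60 and 7.20 in AsPC1 and 3.15, 2.69 and 3.07 in AsPC1-R, with AsPC1 replicate 3 the highest and all AsPC1-R arrays lower. PPARG, the factor that drives FABP4 in fat, fell by 0.52 (SE 0.08, adjusted p = 0.000406), PPARA by 0.51, ACSL1, which activates fatty acids, by 1.01 (SE 0.11, adjusted p = 1.71e-05) and the droplet coat PLIN2 by 0.68.

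**Figure D3:**
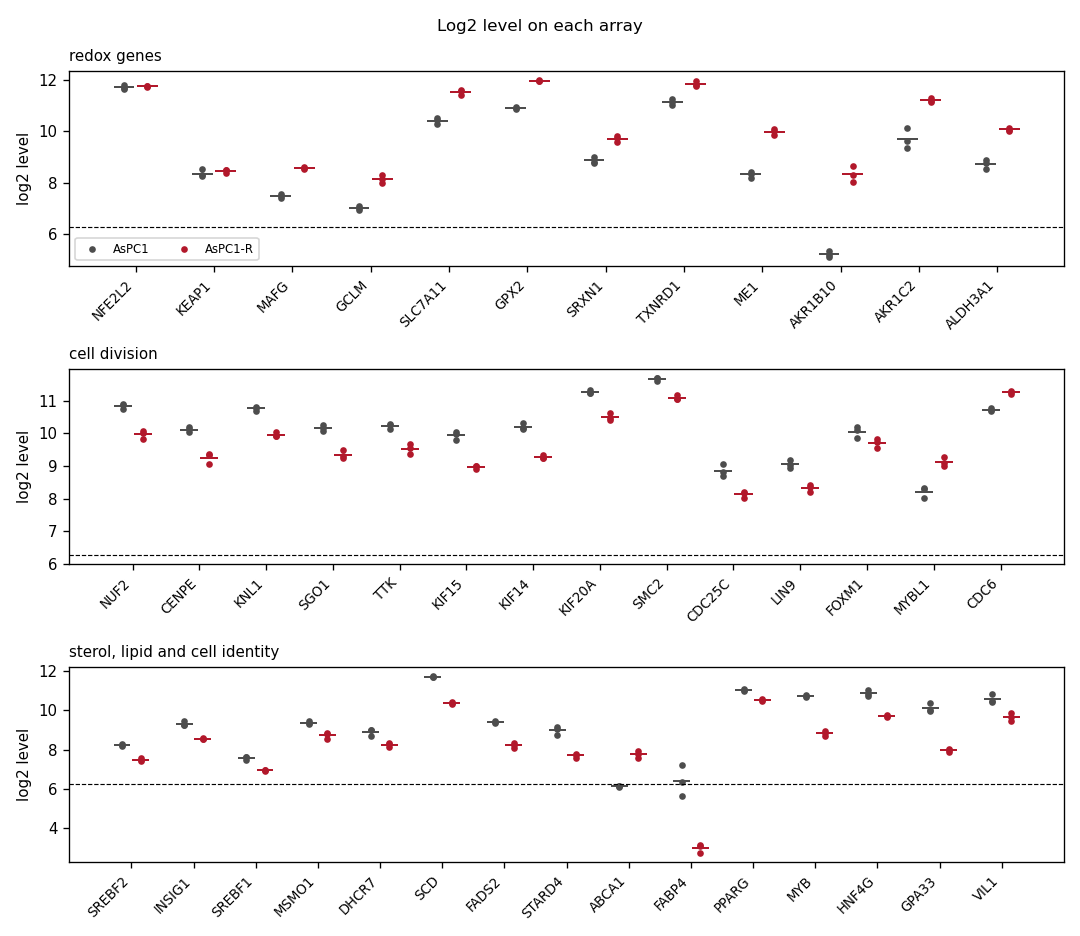
Log2 level of redox genes, of cell division genes, and of sterol, lipid and cell identity genes on each array, AsPC1 in grey and AsPC1-R in red, with bars at the group means. NFE2L2 and KEAP1 overlap between groups while AKR1B10 does not, and among the division genes MYBL1 and CDC6 are higher where the others are lower.

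Genes of intestinal and classical pancreatic identity fell in part. Of 23 endodermal transcription factors 1 rose and 4 fell (4.35% and 17.4%, beside 11.6% and 8.64% of all genes). HNF4G, a nuclear receptor of gut epithelium, read 10.82, 11.04 and 10.76 in AsPC1 and 9.77, 9.65 and 9.74 in AsPC1-R. The AsPC1-R arrays were more than 2-fold lower (change -1.15, SE 0.10, adjusted p = 1.67e-06). ELF3 fell by 0.54 (SE 0.10, adjusted p = 0.00146). GATA6, a marker of the classical type, changed by -0.08 and CDX2, the master factor of intestine, by -0.25, and neither passed the test (adjusted p = 0.717 and 0.119, limma; CDX2 reached 0.0447 without AsPC1-R replicate 3 and 0.032 after another quantile normalization). HNF4A was not analysed here. MYB, which marks progenitors, read 10.81, 10.67 and 10.73 in AsPC1 and 8.93, 8.70 and 8.85 in AsPC1-R, a fall of 1.91 (SE 0.11, adjusted p = 2.62e-08).

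Of 20 brush border genes 2 rose and 4 fell (10% and 20%, beside 11.6% and 8.64% of all genes). Only 1 rise was left without AsPC1 replicate 1 or 2, BxPC3 replicate 3, or any 1 AsPC1-R or BxPC3-R array. Among the falls was that of MYO1A, brush border myosin I, by 1.63 (SE 0.24, adjusted p = 0.00024). VIL1, villin of microvilli, read 10.42, 10.46 and 10.85 in AsPC1 and 9.64, 9.89 and 9.48 in AsPC1-R, and the gut antigen GPA33 10.01, 9.95 and 10.39 in AsPC1 and 7.87, 8.01 and 8.0 in AsPC1-R. AsPC1-R was lower without overlap for both (SE 0.16, adjusted p = 0.000951, and SE 0.16, adjusted p = 2.85e-07). CEACAM5, the carcinoembryonic antigen, fell by 0.96 (SE 0.10, adjusted p = 6.85e-06), and TFF1, a trefoil peptide of the classical type, by 0.63. Of 21 classical genes 2 rose and 6 fell (9.52% and 28.6%), and of 18 basal-like and squamous genes 5 rose and 2 fell (27.8% and 11.1%). SCEL, sciellin of the cornified envelope, read 5.09, 4.68 and 5.18 in AsPC1 and 9.05, 8.98 and 8.80 in AsPC1-R, the widest rise of that list (change 3.96, SE 0.12, adjusted p = 3.96e-11), and UCA1, a long noncoding RNA, and FAM83A rose by 2.49 (SE 0.18, adjusted p = 2.93e-07) and 1.40 (SE 0.08, adjusted p = 1.75e-08). DSG3, a desmoglein of squamous epithelium, fell by 1.2, from 10.27, 10.58 and 10.25 to 9.24, 9.08 and 9.18 (SE 0.10, adjusted p = 7.69e-07). For several gut genes the error was set by BxPC3 replicate 2. MUC17, a membrane mucin, read 12.53, 12.36 and 12.56 in AsPC1 and 11.87, 11.74 and 11.97 in AsPC1-R, without overlap, but its adjusted p was 0.257 over 12 arrays and 0.00292 over the 6 arrays of this pair. LGR5, the intestinal stem cell receptor, read 11.85, 11.65 and 11.43 in AsPC1 and 11.14, 10.95 and 11.20 in AsPC1-R, with adjusted p values of 0.283 and 0.0155. CDH17 (change -0.19) and LYZ, lysozyme (-0.06), had SEs of 0.79 and 0.56 over 12 arrays and of 0.09 over 6, and passed neither test.

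Junction and mesenchymal genes gave no common direction. Of 26 epithelial junction and polarity genes 3 rose and 5 fell (11.5% and 19.2%, beside 11.6% and 8.64% of all genes). CLDN1, a sealing claudin, read 11.37, 11.46 and 11.35 in AsPC1 and 12.51, 12.52 and 12.42 in AsPC1-R, higher on all arrays (change 1.09, SE 0.08, adjusted p = 2.93e-07), and the pore claudin CLDN2 rose by 0.78. Of 18 mesenchymal genes 3 rose and 1 fell (16.7% and 5.56%). VIM, vimentin, read 12.37, 12.30 and 12.26 in AsPC1 and 12.21, 12.26 and 12.32 in AsPC1-R. These readings overlapped (change -0.04, adjusted p = 0.925, limma). TNC, tenascin C, fell by 1.08 (SE 0.13, adjusted p = 3.99e-05), and SPARC rose by 0.52.

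At the cell surface 4 of 15 integrins rose and 1 fell (none without AsPC1 replicate 1 or 2 or AsPC1-R replicate 2), and 4 of 15 laminins and collagens rose and none fell. ITGA5, the fibronectin receptor chain, read 5.99, 6.32 and 5.87 in AsPC1 and 6.92, 6.82 and 6.77 in AsPC1-R, and ITGA3, a laminin receptor chain, 8.98, 9.06 and 8.74 in AsPC1 and 9.66, 9.56 and 9.72 in AsPC1-R. Both were higher on every AsPC1-R array (changes 0.77 and 0.72). LAMB3, a chain of laminin-332, rose by 0.71 (SE 0.11, adjusted p = 0.00034), and COL12A1 by 0.88. Of 21 matrix proteases and inhibitors 7 rose and 3 fell. The plasminogen activator PLAU read 8.51, 8.53 and 8.59 in AsPC1 and 10.01, 10.02 and 10.08 in AsPC1-R, and its relative PLAT 9.62, 9.33 and 9.64 in AsPC1 and 11.52, 11.48 and 11.52 in AsPC1-R. Neither overlapped (changes 1.5 and 1.98, SE 0.08, adjusted p = 9.16e-09, and SE 0.11, adjusted p = 1.6e-08). MMP1, a collagenase, rose by 2.29 (SE 0.15, adjusted p = 1.11e-07) and TIMP2 by 1.01, while MMP7, matrilysin, fell by 0.54. Of 12 mucins 2 rose and 1 fell (16.7% and 8.33%, beside 11.6% and 8.64% of all genes). MUC1 rose by 0.72 and MUC3A by 0.68, and MUC5B fell by 0.76 (SE 0.08, adjusted p = 1.94e-05).

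Among ERBB receptors and ligands 6 of 12 rose and 1 fell. TGFA, a ligand of EGFR, read 7.65, 7.64 and 7.60 in AsPC1 and 8.73, 8.73 and 8.73 in AsPC1-R. It was higher on all 3 AsPC1-R arrays (change 1.10, SE 0.10, adjusted p = 3.17e-06), as was EREG, epiregulin (0.66, SE 0.09, adjusted p = 0.000158), and NRG1, the ligand of ERBB3, rose by 0.87 (SE 0.18, adjusted p = 0.0029). The NRG1 means, 5.33 in AsPC1 and 6.20 in AsPC1-R, were under the olfactory receptor level. The other NRG1 probe set changed by 0.36 (adjusted p = 0.195, limma over probe sets). ERBB3, in contrast, read 9.82, 9.85 and 9.89 in AsPC1 and 8.53, 8.32 and 8.61 in AsPC1-R, a fall of 1.37 (SE 0.09, adjusted p = 1.32e-07). EGFR changed by 0.11 and did not pass the test, and its feedback inhibitor ERRFI1 rose by 0.94. Of 16 genes of MAPK output 3 rose and 2 fell (18.8% and 12.5%, beside 11.6% and 8.64% of all genes). No fall was left without AsPC1-R replicate 1 or 3.

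Of 22 genes of YAP, TEAD, their regulators and targets, which respond to cell shape and matrix, 9 rose and none fell (median 0.16). YAP1 and TEAD1 changed by 0.16 and 0.16 and did not pass the test, and the YAP paralog WWTR1 rose by 0.42 (SE 0.09, adjusted p = 0.00308). AMOTL1, an angiomotin, rose by 1.71 (SE 0.12, adjusted p = 1.94e-07) and AJUBA by 0.80. The TEAD core GGAATG, both strands, stood in 6 of 18 promoters, in 4 of 8 whose genes rose, and in 14% of all (3836). The 2 largest rises had it, and so did CCN2 (3 matches), which was not called higher. ANKRD1, at chr10:90921088-90921337 on the minus strand, holds it 220 and 128 bases before the start, and TGFB2, at chr1:218345086-218345335 on the plus strand, in the minus orientation 185 bases before it. ANKRD1, an ankyrin repeat protein, read 4.78, 5.06 and 5.42 in AsPC1 and 8.66, 8.73 and 8.60 in AsPC1-R, and TGFB2, a TGF-beta ligand, 8.99, 9.06 and 8.84 in AsPC1 and 11.30, 11.08 and 11.36 in AsPC1-R. No array of one group reached the other (SE 0.12, adjusted p = 1.58e-10, and SE 0.10, adjusted p = 2.11e-09).
ANKRD1: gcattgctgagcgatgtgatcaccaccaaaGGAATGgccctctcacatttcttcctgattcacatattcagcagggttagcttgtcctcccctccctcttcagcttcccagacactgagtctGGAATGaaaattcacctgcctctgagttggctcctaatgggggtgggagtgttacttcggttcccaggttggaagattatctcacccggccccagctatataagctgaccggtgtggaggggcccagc
TGFB2: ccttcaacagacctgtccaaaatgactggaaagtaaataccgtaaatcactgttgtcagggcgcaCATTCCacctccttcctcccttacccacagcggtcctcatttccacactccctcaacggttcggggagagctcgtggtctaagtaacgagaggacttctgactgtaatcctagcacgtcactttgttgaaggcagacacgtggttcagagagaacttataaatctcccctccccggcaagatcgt

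Of 24 genes of TGF-beta and BMP signalling 2 rose and 4 fell (8.33% and 16.7%, beside 11.6% and 8.64% of all genes). Only 2 fell without AsPC1 replicate 1, AsPC1-R replicate 1 or AsPC1-R replicate 2. SMAD3, a transducer, read 10.48, 10.65 and 10.45 in AsPC1 and 11.46, 11.39 and 11.62 in AsPC1-R, all higher (change 0.97, SE 0.09, adjusted p = 3.81e-06), while the receptor TGFBR1 fell by 0.63 (SE 0.08, adjusted p = 0.000111) and SMAD4 changed by -0.24 (adjusted p = 0.404). Of 28 WNT genes 3 rose and 5 fell (10.7% and 17.9%). ROR1, a WNT5A receptor, rose by 1.03 (SE 0.19, adjusted p = 0.00127), and the secreted inhibitor DKK1 fell by 0.69. Of 19 Notch genes 2 rose and 2 fell (10.5% each), shares close to those of all genes. There were 5 falls without AsPC1 replicate 3, and no fall was left when replicate 1 of either group was left out. JAG1, a ligand, rose by 0.77 (SE 0.10, adjusted p = 7.89e-05).

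Death receptors and caspases rose in 11 of 19 cases and fell in 1 (median 0.31). CASP1, the inflammasome caspase, read 3.49, 4.11 and 3.52 in AsPC1 and 5.43, 5.81 and 5.67 in AsPC1-R. The groups were apart, though all 6 readings were under the olfactory receptor level (change 1.93, SE 0.18, adjusted p = 2.81e-06). CASP5 rose by 1.26 and CASP10, of the death receptors, by 0.78 (SE 0.11, adjusted p = 0.000216). TNFRSF10A, a TRAIL receptor, rose by 0.82 (SE 0.14, adjusted p = 0.000766), its ligand TNFSF10 by 1.01, the decoy TNFRSF11B by 0.81 and CFLAR, which blocks caspase 8, by 0.71. The other CFLAR probe set changed by 0.19 (adjusted p = 0.438, limma over probe sets). RIPK3, the kinase of necroptosis, fell by 0.46 (SE 0.10, adjusted p = 0.00387). In the BCL2 family 3 of 19 rose and 1 fell (15.8% and 5.26%, beside 11.6% and 8.64% of all genes). The fall was lost without any 1 of 10 of the 12 arrays. PMAIP1, the BH3-only protein NOXA, read 8.87, 8.97 and 8.89 in AsPC1 and 10.0, 10.08 and 10.02 in AsPC1-R, without overlap. BCL2L1 changed by 0.42 (SE 0.10, adjusted p = 0.00873).

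ER stress and amino acid response genes gave 4 rises and 1 fall in 21 (19% and 4.76%, beside 11.6% and 8.64% of all genes). Only 2 rises were left without AsPC1 replicate 1 or 2 or AsPC1-R replicate 1 or 2. ASNS, asparagine synthetase, rose by 0.61 (SE 0.09, adjusted p = 0.000387). Of 27 hypoxia and glycolysis genes 7 rose and 3 fell, 1 without AsPC1 replicate 1. PFKFB3, which stimulates glycolysis, read 7.94, 8.01 and 7.86 in AsPC1 and 9.03, 9.19 and 9.03 in AsPC1-R, all higher (change 1.15, SE 0.09, adjusted p = 5.56e-07). HIF1A rose by 0.65 (SE 0.12, adjusted p = 0.0013), and PDK1 fell by 0.52. Immediate early genes, which respond within minutes to handling of cultures, fell in 8 of 15 cases and none rose (median -0.29). EGR1 read 11.79, 11.68 and 11.38 in AsPC1 and 10.54, 10.52 and 10.40 in AsPC1-R, lower on all AsPC1-R arrays (change -1.13, SE 0.13, adjusted p = 1.98e-05), and NR4A1 fell by 0.78. Their part in the other changes was not tested.

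**Figure D4:**
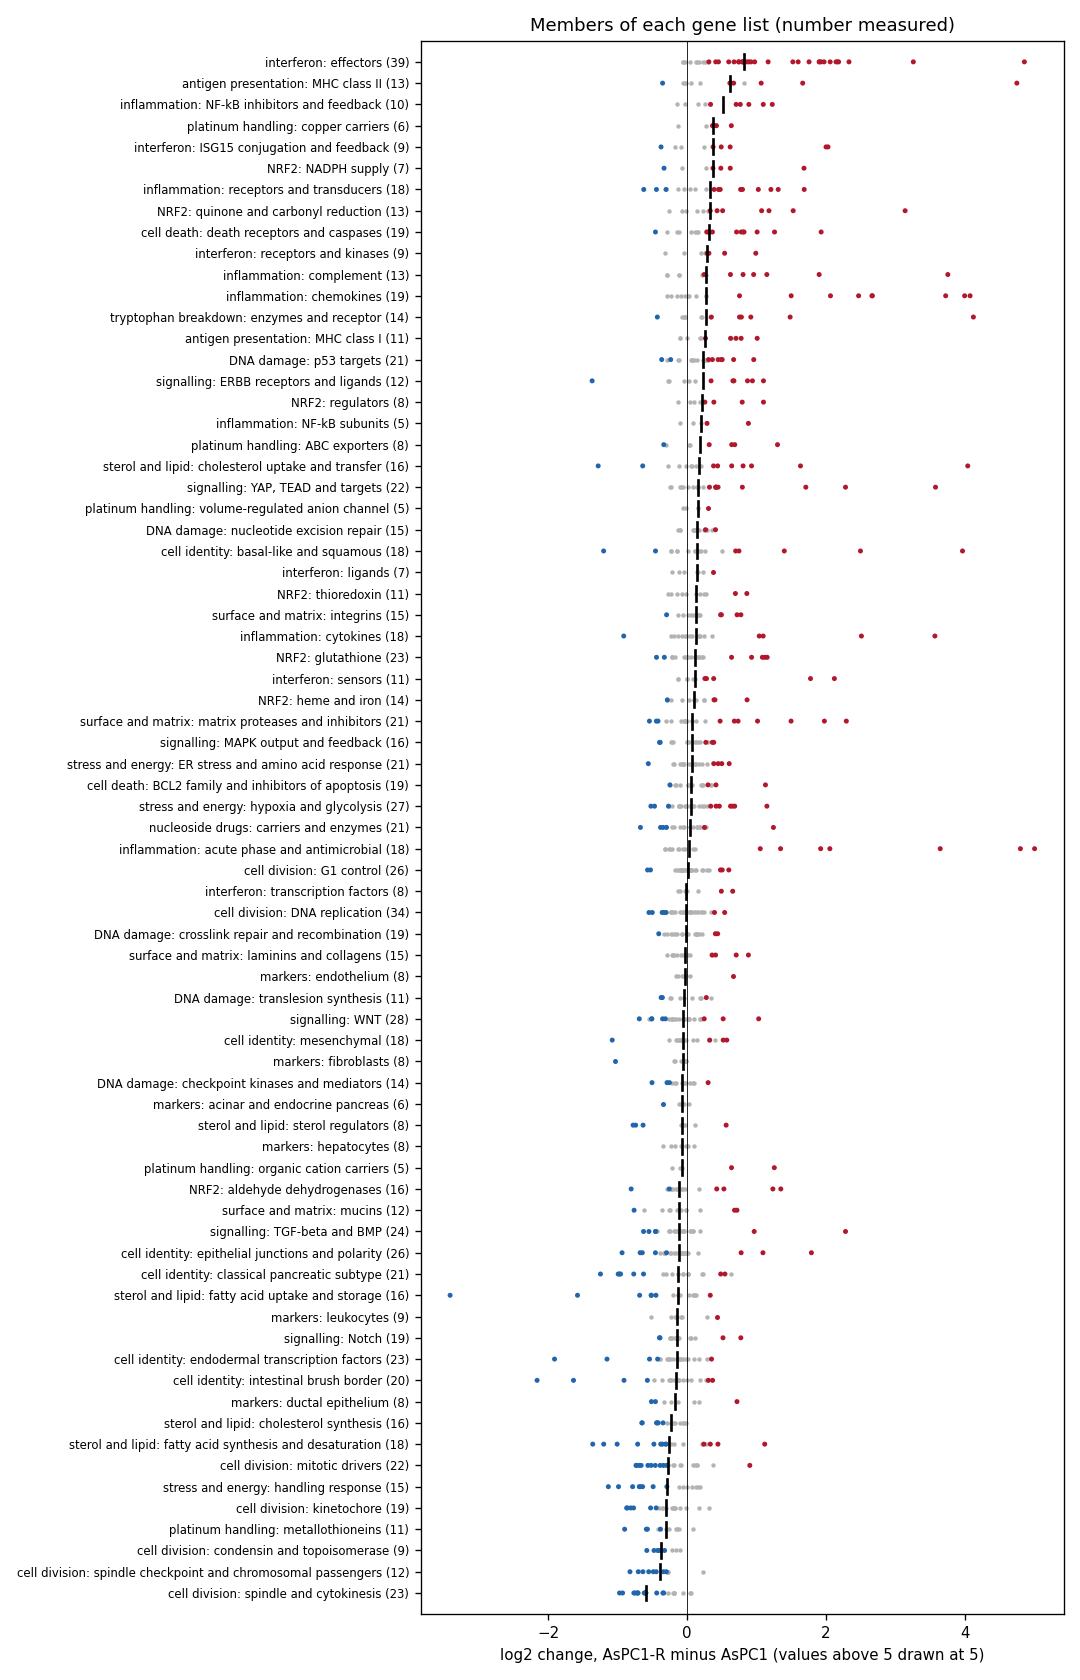
Log2 change, AsPC1-R minus AsPC1, of every measured member of the 73 gene lists, ordered by the list's median (black tick), with called genes in red (higher) or blue (lower) and the number measured in brackets. Interferon effectors have the highest median, 0.81, and spindle and cytokinesis genes the lowest, -0.59, beside -0.05 for all genes, and SAA2 at 6.33 is drawn at 5.

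Several of the largest changes belonged to none of these lists. ZC3H12C, a relative of the mRNA-degrading regnase-1, read 4.55, 4.55 and 4.44 in AsPC1 and 8.75, 8.54 and 8.59 in AsPC1-R, from under the olfactory receptor level to well above it (change 4.12, SE 0.10, adjusted p = 3.78e-12). SLC39A8, a zinc and manganese importer, rose by 3.68 (SE 0.13, adjusted p = 1.81e-10), and MID1, a microtubule-bound ubiquitin ligase, by 3.61 (SE 0.13, adjusted p = 3.02e-10). UTRN, utrophin, read 6.85, 6.86 and 6.92 in AsPC1 and 10.50, 10.34 and 10.52 in AsPC1-R, all higher in AsPC1-R (change 3.57, SE 0.08, adjusted p = 2.79e-12). TCN1, the vitamin B12 carrier haptocorrin, rose by 3.50, the basement membrane protein FRAS1 by 3.39, the orphan receptor GPRC5B by 3.35, TPST1, a tyrosylprotein sulfotransferase, by 3.31, DRAM1, a lysosomal p53 target, by 3.29 and CST1, a cystatin, by 3.20.

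Among the largest falls, NTRK2, the BDNF receptor, read 9.07, 8.95 and 9.21 in AsPC1 and 7.46, 7.48 and 7.40 in AsPC1-R, and SYTL5, a synaptotagmin-like protein, 9.54, 9.56 and 9.64 in AsPC1 and 7.98, 7.98 and 8.04 in AsPC1-R. Neither overlapped between the groups. TMEM117, a membrane protein, and SYTL5 had compact groups (falls of 1.57 and 1.58, SE 0.08, adjusted p = 4.36e-09, and SE 0.08, adjusted p = 7.77e-09). The histone genes H2BC10 and H4C4 fell by 1.57 and 1.51, and MEF2C, a transcription factor of muscle and neurons, by 1.51 (SE 0.16, adjusted p = 1.02e-05). IRAK3, an inhibitor of Toll-like receptor signalling, fell by 1.45 (SE 0.12, adjusted p = 1.41e-06), from 6.47, 6.40 and 6.16 to 4.95, 5.09 and 4.63.

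By gene symbol families of transcription factors, the largest rises beside those above were ZNF518B (1.63), ZNF724 (1.46), FOXP1 (1.40, SE 0.09, adjusted p = 7.26e-08) and SP110, an interferon-induced nuclear body protein (1.33, SE 0.11, adjusted p = 7.9e-07). FOXP1 and FOXP2, close relatives, moved in opposite directions: FOXP1 read 6.36, 6.16 and 6.15 in AsPC1 and 7.75, 7.51 and 7.62 in AsPC1-R, and FOXP2 8.02, 7.87 and 7.88 in AsPC1 and 6.95, 6.99 and 6.98 in AsPC1-R. Neither overlapped, and FOXP2 fell by 0.95 (SE 0.10, adjusted p = 7.53e-06), while ZNF124 fell by 1.01. NRCAM, an adhesion protein that shares the letters of a factor family, rose by 3.15 (SE 0.14, adjusted p = 1.54e-09).

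Called genes were not spread evenly along the genome. Of 576 genes on chromosome 15, 163 rose (28.3%) and 19 fell (3.30%), and of 1067 on chromosome 17, 272 rose (25.5%) and 39 fell (3.66%), beside 11.6% and 8.64% over all genes. Chromosome 12 went the other way, with 73 of 982 rising (7.43%) and 193 falling (19.7%), and on chromosome 1, of 1866 genes, 141 rose and 251 fell (13.5%). In 356 windows of 50 neighbouring genes the median count was 5 rises and 3.5 falls, and 6 windows held at least 20 rises and 1 at least 20 falls. All 6 lay on chromosomes 15 and 17. The window from GHDC to MPP2 on chromosome 17 held 26 rises and no fall, with a median change of 0.41, and that from LARP6 to SCAMP5 on chromosome 15 held 23 and none, with 0.26. On chromosome 12 the window from PPP1R12A to USP44 held 1 rise and 21 falls, with a median of -0.27. In BxPC3-R the medians of the same windows were -0.10, -0.01 and 0.24. The chromosome 17 window includes STAT3. On chromosome 6 the window from KIAA0319 to BTN2A3P, which includes the histone genes H4C4 and H2BC10, held 7 rises and 18 falls, with a median of -0.20. DNA copy number was not measured, and its part in these runs was not tested.

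**Figure D5:**
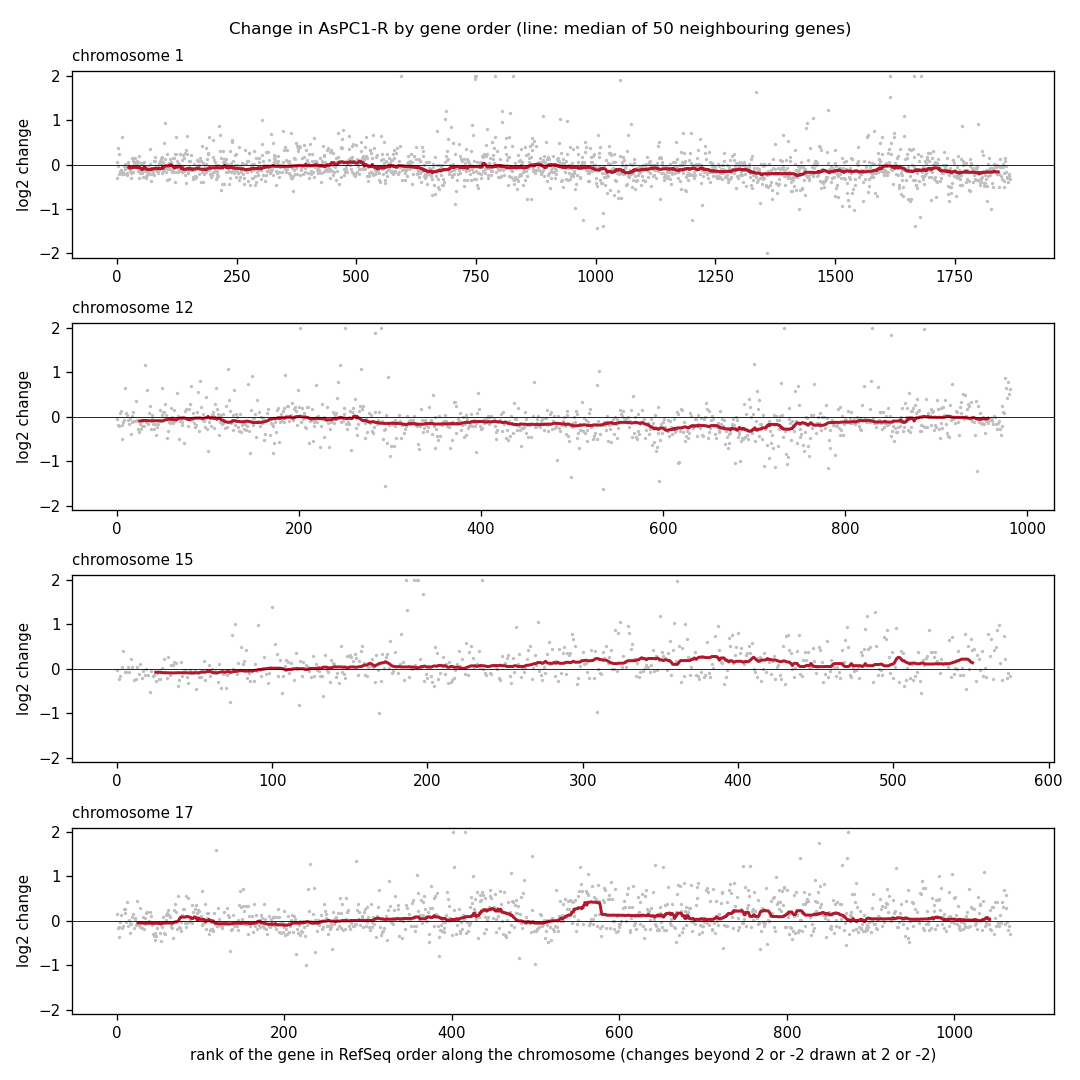
Log2 change, AsPC1-R minus AsPC1, of each gene (grey points, values beyond 2 in either direction drawn at 2) along its rank in gene order on chromosomes 1, 12, 15 and 17, with the median of 50 neighbouring genes as a red line. The windows with the most calls have medians of 0.41 on chromosome 17 and -0.27 on chromosome 12.

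The same genes were read in BxPC3-R against BxPC3, a comparison that shares no array with this one. Both comparisons came from the same fit, however, and a gene's SE was pooled over all groups. A gene with a small SE was thus called more readily in both lines, so the calls are not independent. How far this shaped the overlap of calls was not tested. The overlap counts are given only with BxPC3 replicate 2 included. There 1795 genes rose (9.75%) and 2031 fell (11% of genes). Of the genes that rose in AsPC1-R, 233 also rose in BxPC3-R (10.9%) and 631 fell (29.5%), and of those that fell in AsPC1-R, 202 also fell there (12.7%) and 360 rose (22.6%). The test of the difference between the 2 changes called 4685 genes (25.4%), 2595 with the AsPC1-R change higher and 2090 lower, and 402 beyond a 2-fold difference (2.18%), or 362 without BxPC3 replicate 2. Among interferon effectors the difference passed for 35 of 39, and 21 fell in BxPC3-R where none rose (median -0.35). For IDO1 the changes were 1.48 in AsPC1-R and -2.84 in BxPC3-R, a difference of 4.32. CXCL8 changed by 2.06 and -2.87, and IL6 by 0.07 and -2.68, so that IL6 was called in the BxPC3 pair and not in the AsPC1 pair (difference 2.75). Replication genes rose in 18 of 34 cases in BxPC3-R, where 2 rose and 5 fell in AsPC1-R.

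A smaller set moved the same way in both derivatives. Some sterol genes and the desaturase SCD did: INSIG1 changed by -0.78 in AsPC1-R and -1.34 in BxPC3-R, SREBF2 by -0.74 and -0.97, DHCR7 by -0.65 and -0.91, and SCD by -1.36 and -1.16, all called in both. The test of the difference passed for 2 of 16 cholesterol synthesis genes, beside 25.4% of all genes. It passed for 10 of 18 genes of fatty acid synthesis and desaturation. The metallothioneins MT1E (-0.90 and -1.01), MT1F (-0.59 and -0.37) and MT2A (-0.57 and -0.48) fell in both. CLU, ROR1, MYBL1, SLC22A4 and TNFRSF11B rose in both, by 1.15 and 1.46, 1.03 and 1.15, 0.90 and 0.81, 1.26 and 0.72, and 0.81 and 1.06. HNF4G fell in both, by 1.15 and 0.83. Of the carriers and repair genes, ATP7A (0.42 and 0.71) and FANCI (0.41 and 0.33) rose in both.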

How the data were processed

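Total RNA was amplified, biotin labelled and hybridised to Affymetrix gene arrays, 12 in all, per the labels' protocols. The deposited values are log2 probe set levels that the authors made with RMA in Affymetrix Expression Console, per the submitters' processing notes. Neither versions nor the build behind the probe annotation are given in the sources used here. RMA pulls arrays to a common distribution, so values are relative to the array. Of 33297 probe sets, 19460 had 1 symbol in the platform annotation, 1754 several and 12083 none listed. They gave 18417 genes, 769 of them with several probe sets, for which the one with the highest mean over the 12 arrays was used.

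All genes were fitted with limma 3.58.1 in R 4.3.3 (4 group means over 12 arrays, eBayes, Benjamini-Hochberg over all genes, threshold 0.05), after the scripts were tested on simulated data. The difference between lines was also tested against 2-fold with treat. An exact permutation test of 3 against 3 arrays could not go below 0.1. Members were described from 73 gene lists (1127 measured memberships). Genes were named by rule: the 15 largest called rises and falls, the 3 largest called changes per list and the 10 largest rises and falls outside the lists. The 5 largest in factor families by symbol prefix (which also took NRCAM) were added. All of these had to have no overlap between the arrays of the groups and a group above the olfactory receptor level. Preset regulators and other list members described were named without these conditions. The members and lists were chosen with earlier results of these data known. Promoters came from RefSeq (GRCh38.p14). Genes were matched to RefSeq by gene number, which gave a chromosome for 18386 of them. Alternatives covered normalization, filtering, probe sets, weights, model and each array left out.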

Additional observations from a re-analysis of the deposited data

Results flagged for a closer look

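For 101 genes named in the text the change in AsPC1-R differed from that in BxPC3-R by more than 2-fold in the test of the difference itself (limma, 12 arrays). The values below are the AsPC1-R change minus the BxPC3-R change on the log2 scale. Most of these genes were named for a large change in AsPC1-R, which the difference contains. Their number and the split of signs follow in part from that choice. Over all genes tested 402 passed (2.18%). Among the 101 the difference was positive for 89 and negative for 12, and it passed for 95 without BxPC3 replicate 2, where no value moved by more than 0.331. The 6 that no longer passed were H4C4, NFKB2, CSF1, MMP1, ZNF518B and CYLD.

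Interferon sensors, receptor, effectors and HERC genes differed as follows: IFIH1 (2.59), RIGI (1.94), IFNGR1 (1.82), SLFN5 (5.68), GBP4 (5.04), IFI44L (2.51), IFI27 (4.03), OAS2 (2.26), HERC5 (2.39) and HERC6 (2.55). In antigen presentation the differences were HLA-DPA1 (5.33) and PSMB9 (2.43). Among cytokines, their receptors and the NF-kB loop they were IL1A (4.45), IL1B (4.1), IL6 (2.75), IL32 (1.62), CSF1 (1.96), IL1R1 (2.22), LIFR (1.83), STAT3 (1.78), NFKB2 (1.48), NFKBIZ (2.32), NFKBIA (1.85), TNIP1 (2.3), TNFAIP3 (2.1) and CYLD (1.5). Chemokines gave CXCL5 (7.12), CXCL8 (4.94), CXCL10 (4.78), CXCL11 (3.43), CCL5 (3.11) and CCL28 (4.41), and acute phase, antimicrobial and complement genes SAA1 (8.83), SAA2 (10.31), SLPI (3.75), PI3 (6.61), DEFB1 (2.57), C3 (6.85), CFB (3.95) and CFI (1.83). In tryptophan breakdown they were IDO1 (4.32) and KYNU (5.62).

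Redox genes gave MAFG (1.7), SLC7A11 (2.03), GPX2 (1.51), ME1 (2.02), AKR1B10 (4.59), AKR1C1 (3.16), AKR1C2 (3.49), ALDH3A1 (3.06) and PTGR1 (2.09). Carriers, nucleotide enzymes and p53 targets gave ABCC3 (1.64), SAMHD1 (1.66), PLK2 (1.53) and TP53INP1 (1.65), and lipid genes OSBPL6 (4.52), ABCA1 (2.46), LIPA (1.77) and FABP4 (-3.4). In cell identity, junctions, surface and matrix the differences were UCA1 (3.94), FAM83A (1.67), SCEL (4.15), MAL2 (2.01), CLDN1 (1.72), GPA33 (-2.12), MYB (-1.74), MMP1 (1.92), PLAT (3.09), PLAU (2.06), TIMP2 (2.21), LUM (-2.56) and PECAM1 (1.89). Signalling and cell death genes gave ERBB3 (-1.52), ANKRD1 (4.83), TGFB2 (3.11), AMOTL1 (2.33), TNFSF10 (2.51), PMAIP1 (1.55), CASP1 (2.94) and CFLAR (2.1).

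Of the genes outside these lists, the AsPC1-R change was the higher for ZC3H12C (5.24), SLC39A8 (3.87), MID1 (3.5), UTRN (3.64), TCN1 (5.01), FRAS1 (4.02), GPRC5B (3.73), TPST1 (3.62), DRAM1 (3.56), CST1 (5.43), NRCAM (5.35), ZNF518B (1.68), ZNF724 (2.14) and FOXP1 (1.59), and the lower for SYTL5 (-3.96), H2BC10 (-1.83), TMEM117 (-2.52), H4C4 (-2.26), PCOTH (-2.05), CEP15 (-2.01) and FOXP2 (-1.59).

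Probe sets that the annotation does not tie to exactly 1 gene were not part of the comparisons. Of 12083 that are unnamed here, 178 rose and 393 fell, 47 and 57 of them at least 2-fold, with a highest rise of 3.16 and a largest fall of 2.12. Of 1754 with several symbols, 164 rose and 87 fell, 37 and 2 of them at least 2-fold, with a highest rise of 5.44.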

How the results depend on the processing

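Over the settings tried, genes called higher in AsPC1-R numbered 1667 (only the 6 AsPC1 and AsPC1-R arrays) to 2420 (array weights), except 324 in a test against 1.5-fold, and genes called lower 1076 to 2038, except 74 in that test. Leaving out each array gave 1691 to 2319 higher, 1153 to 1927 lower, 343 to 376 at least 2-fold higher, 73 to 88 at least 2-fold lower, 3961 to 5296 differing between lines and 13404 to 14736 bounded within 1.5-fold. Centring arrays on their medians shifted all changes by 0.038.

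The replicate numbers did not pair the samples, since same-numbered arrays did not deviate together (correlations -0.0256, -0.239 and -0.203). With the number as a replicate block, 2068 genes were higher and 1485 lower, 348 and 81 of them at least 2-fold.

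Counts of at least 3 list members in the direction with more calls stayed within 1.5 times except as follows. With arrays centred on their medians, 5 spindle checkpoint and passenger genes and 3 replication genes were lower. After another quantile normalization 3 sensors were higher. On the 6 arrays alone, 3 sensors, 2 interferon receptors and kinases, 2 NADPH genes, 7 death receptors and caspases and 2 ER stress genes were higher, and 2 nucleoside genes, 1 checkpoint kinase, 5 spindle checkpoint and passenger genes and 3 replication genes lower. With array weights 9 epithelial junction genes were lower. Of counts in the other direction, 2 fatty acid synthesis genes were higher and 1 hypoxia gene lower on the 6 arrays alone. Of 51 counts of 1 or 2 members, 11 went to 0 there, among them those of excision repair, translesion and anion channel genes.

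Leaving out each array in turn moved the counts of sensors (2 to 5), interferon receptors and kinases (3 to 6), ISG15 genes (3 to 6), NADPH genes (2 to 5), heme and iron genes (1 to 3) and ER stress genes (2 to 5) that were higher, and of checkpoint kinases (1 to 3), spindle checkpoint and passenger genes (5 to 10), replication genes (3 to 5) and TGF-beta genes (2 to 5) that were lower.

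The test against 1.5-fold asks for larger changes and so kept fewer. Higher by it were 16 interferon effectors, 4 matrix proteases, 3 each of cytokine receptors, complement, quinone reduction, basal-like, YAP, and death receptor genes, 2 each of sensors, ISG15, MHC class II, NF-kB inhibitor, tryptophan and cholesterol transfer genes, 1 each of NRF2 regulator, NADPH, aldehyde dehydrogenase, ABC, p53, ERBB, BCL2 and hypoxia genes, and 0 of interferon receptors, MHC class I, heme and iron, copper, G1, mesenchymal, integrin, laminin, MAPK and ER stress genes. Lower by it were 3 fatty acid synthesis genes, 2 each of spindle, fatty acid uptake, endodermal factor, brush border and classical genes, 1 handling gene, and 0 of metallothionein, nucleoside, checkpoint, kinetochore, spindle checkpoint, condensin, mitotic driver, replication, sterol regulator, cholesterol synthesis, epithelial, TGF-beta and WNT genes.

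Of 312 genes named or checked, 287 were called. Lost calls numbered 5 with the replicate block, 4 with centring, 3 after another quantile normalization, 17 on the 6 arrays alone, 1 as a mean over probe sets, 2 with array weights and 173 against 1.5-fold. Changes that turned sign, none of them called, were those of NFE2L2 with array weights (-0.011) and, leaving out each array, NFE2L2 (-0.0024 to 0.090), KRT19 (-0.27 to 0.035) and GATA6 (-0.23 to 0.069). The cause of these moves was not tested. Genes near or under the olfactory receptor level have little signal over background, which limits the size of their changes.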
